A study of Bos taurus with 3 samples.

Results

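The cells described here were MFAP5-positive fibroblasts of the newborn calf rumen, the forestomach wall in which a keratinised epithelium rests on connective tissue. They were chosen barcode by barcode. A barcode was kept with 500 to 4000 genes, at most 50000 UMIs (unique molecular identifiers, each a captured transcript) and at most 40% of its UMIs in the mitochondrial coding genes. It then had to lack PTPRC and PECAM1, carry KRT5, KRT14 and KRT15 together under 10 per 10000 UMIs, hold at least 3 COL3A1 UMIs and at least 1 MFAP5 UMI, and hold fewer than 2 ACTA2 UMIs. Of 26020 kept barcodes, 65 met the rule, 2 in calf 1, 21 in calf 2 and 42 in calf 3. They were compared with 175 cells that met the same limits but had no MFAP5 UMI (5, 62 and 108 in calves 1, 2 and 3). The rule's wider comparison group added 88 MFAP5-negative COL3A1 cells with 2 or more ACTA2 UMIs, of which calf 1 had 0, calf 2 had 45 and calf 3 had 43.

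The study profiled single cells of rumen tissue, stripped of its outer muscle layers, by droplet-based 3′-end sequencing, with 1 library from each of 3 newborn Holstein calves sampled 1 day after birth. Libraries from adult cattle were not analysed here. All 3 calves were untreated and of the same stage, so the comparison was between cell groups of the same animals and libraries, and the calf was the replicate. Tissue was dissociated with EDTA, trypsin and a collagenase mixture, so the share of a cell type among barcodes is a share of what dissociation released.

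Fibroblasts build and maintain the extracellular matrix. MFAP5 encodes a microfibril-associated glycoprotein that binds fibrillin, the scaffold on which elastin is laid down. DLK1 is an imprinted transmembrane protein of the Notch ligand family that lacks the domain of canonical ligands and is known for holding mesenchymal precursors in an undifferentiated state. Dermatopontin (DPT) is a small matrix protein that binds decorin and promotes collagen fibril assembly, ELN encodes tropoelastin, and SAA3 is an acute-phase serum amyloid A made outside the liver. In many organs, MFAP5 and DPT are known from fibroblasts around vessels and deep in the connective tissue, while other fibroblasts lie just under the epithelium.

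The libraries held 82263092, 89803289 and 106145091 UMIs in 7529, 12043 and 11656 barcodes. The members together held 4852, 54578 and 120421 UMIs in calves 1, 2 and 3, so that 1 UMI in calf 1 was worth 2.06 per 10000 and most low genes could not be resolved there. Median UMIs per member were 2426, 2441 and 2618, against 2172, 1721.5 and 2072.5 in the comparison cells. The median mitochondrial share was 5.67%, 6.14% and 2.97% in members and 6.49%, 8.20% and 5.42% in comparison cells. Members were thus deeper and lower in mitochondrial UMIs in each calf, and a deeper cell is more likely to show an MFAP5 UMI. The part of either in the results below was not tested directly, but every fit was repeated on cells thinned to 2000 UMIs and on cells with at most 10% mitochondrial UMIs. On thinned cells fewer genes could be tested and many calls were lost, as given below. Libraries shared 21, 29 and 37 barcode sequences in pairs, and 0 of these were members. A doublet score marked 0, 0 and 2 members.

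Members were 28.6% of the COL3A1 cells of calf 1 (exact Clopper-Pearson 95% interval 3.67 to 71.0), 16.4% in calf 2 (10.5 to 24.0) and 21.8% in calf 3 (16.2 to 28.3). The mean was 22.2% ± 6.10 (SD, n = 3), and the intervals overlapped. Members made up 0.0409%, 0.197% and 0.401% of the kept barcodes of calves 1, 2 and 3, and the COL3A1 cells as a whole were scarce in calf 1, with 7 cells against 128 and 193. Intervals cover counting error alone.

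MFAP5 and COL3A1 chose the cells, and DLK1, ELN, SAA3 and DPT were named from these data, so their levels are given as a description with no test. MFAP5 stood at 28.9, 33.5 and 35.0 UMIs per 10000 in the members of calves 1, 2 and 3. In cells with under 3 COL3A1 UMIs it was at 0.000388 to 0.00133 in epithelial and 0 to 0.0132 in endothelial cells, while COL3A1 cells left out by the keratin limit carried MFAP5 too, as given at the end. COL3A1, the type III collagen chain of loose connective tissue, was at 200, 300 and 297 in members against 185, 122 and 152 in comparison cells. The rule asked for 3 COL3A1 UMIs, yet 1 of the 65 members carried fewer than 10.

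DLK1 was at 47.4, 20.0 and 35.6 per 10000 in members against 0, 0.172 and 2.04 in comparison cells, and each member value lay above each comparison value. The ACTA2 cells had 0 and 0.485 in calves 2 and 3. DPT was at 16.5, 14.7 and 22.1 in members and 11.7, 3.96 and 5.15 in comparison cells. ELN was at 41.2, 45.1 and 32.9 in members, 23.4, 11.6 and 9.62 in comparison cells, and 15.8 and 15.5 in the ACTA2 cells of calves 2 and 3. Among cells within the keratin limit, DLK1 was therefore low outside the members, whereas DPT and ELN were shared at lower levels with the other COL3A1 cells. SAA3 belongs to a family of close paralogs between which reads can be split, so its level is uncertain. It had no UMI in the 2 members of calf 1, and in calves 2 and 3 it was at 21.3 and 13.1 in members against 1.21 and 2.26.

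**Figure D1:**
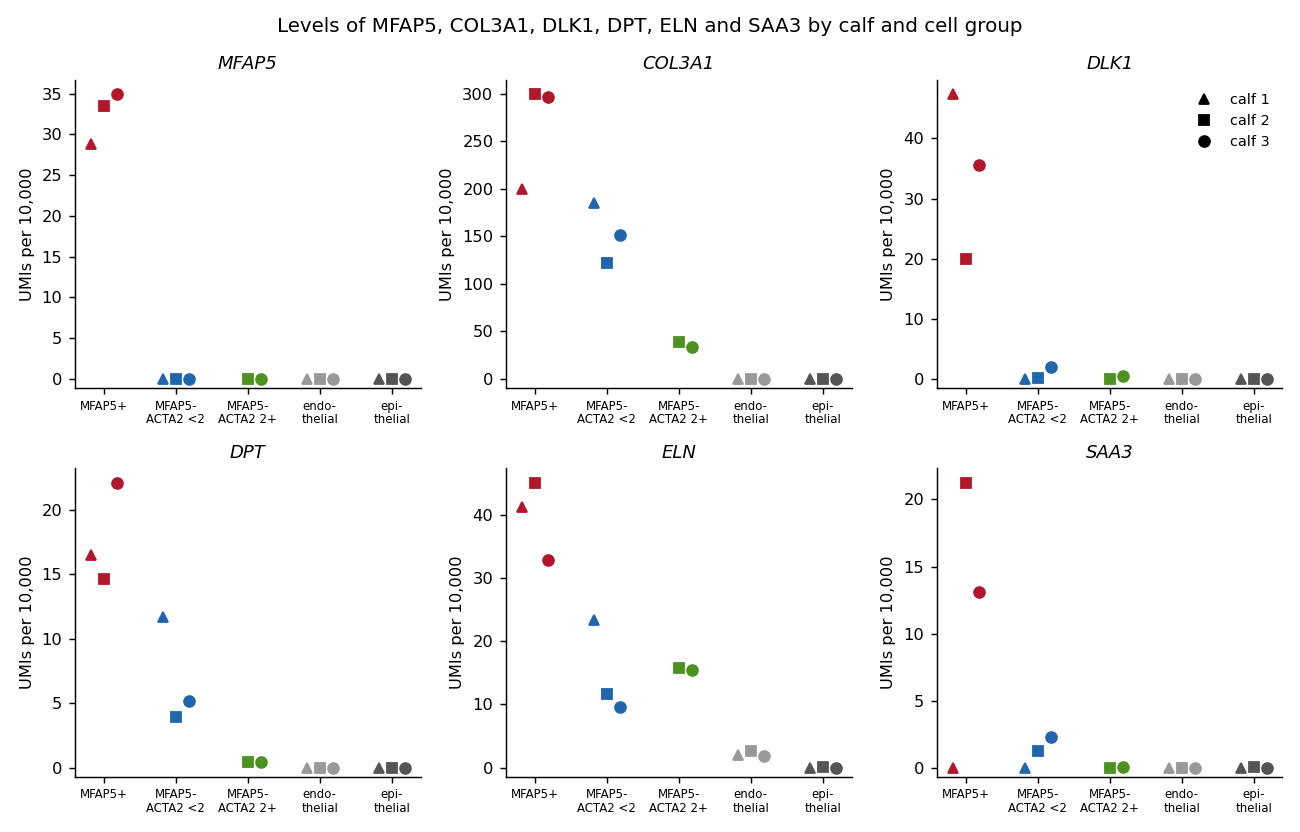
UMIs per 10000 (y axis, linear, a scale of its own in each panel) of MFAP5, COL3A1, DLK1, DPT, ELN and SAA3 in 5 cell groups (x axis), 1 point per calf. MFAP5 sits between 28.9 and 35.0 in members by the rule, DLK1 is at most 2.04 in the other groups drawn, and DPT and ELN are lower but present in the MFAP5-negative cells.

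Cells thinned to 2000 UMIs, with shallower cells left out, gave the same picture at equal depth (50 of 65 members and 82 of 175 comparison cells, calves pooled). The thinned members were 1, 16 and 33 in calves 1, 2 and 3. Intervals of pooled shares treat cells as independent and give no spread between calves. DLK1 was seen in 90.0% of thinned members (95% interval 78.2 to 96.7, 92.3% unthinned) and 4.88% of thinned comparison cells (1.34 to 12, 3.43% unthinned). DPT was seen in 92.0% and 50.0% (89.2% and 46.9% unthinned), and ELN in 92.0% and 61.0% (90.8% and 68.6% unthinned). SAA3 was seen in 28.0% and 2.44% (27.7% and 1.71% unthinned). Among epithelial cells, which should lack these genes, the thinned share was 0.0181% for MFAP5 and 0.11% for DLK1, so free RNA of either was scarce.

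DLK1, DPT and ELN were each seen in most members, so their joint presence largely follows from the single shares. Whether they went together beyond that was not tested. Of the 65 members, 40 carried UMIs of 3 of the genes DLK1, DPT, ELN and SAA3, and 14 carried all 4. DLK1 and DPT were both present in 55 members, and DLK1, DPT and ELN in 51. The 5 members without DLK1 comprised 3 of calf 2 and 2 of calf 3. MFAP5 itself was far from the limit of 1 UMI in most members, with 3 cells at 1 UMI, 16 at 2 to 4, 20 at 5 to 9 and 26 at 10 or more. Outside the limit, 0 cells passed the other criteria with MFAP5 but under 3 COL3A1 UMIs, and 0 members carried even 1 ACTA2 UMI, although the rule allowed it.

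SAA3 and ELN were uneven among members. SAA3 was present in 18 members, 7 of calf 2 and 11 of calf 3, and the 3 cells with most SAA3 held 84.5% of its UMIs in calf 2 and 75.9% in calf 3. The highest single cells had 67 and 59 UMIs, while the median member had 0. For ELN the 3 highest cells held 53.7% and 46.0% of UMIs, with medians of 5 and 4 and maxima of 76 and 113. DLK1 was more even, the 3 highest cells holding 33.9% and 18.9%. The SAA3 level of members thus rested on few cells. Much of the ELN level did too, although 19 of 21 members of calf 2 and 38 of 42 of calf 3 carried ELN. The DLK1 level rested less on single cells.

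**Figure D2:**
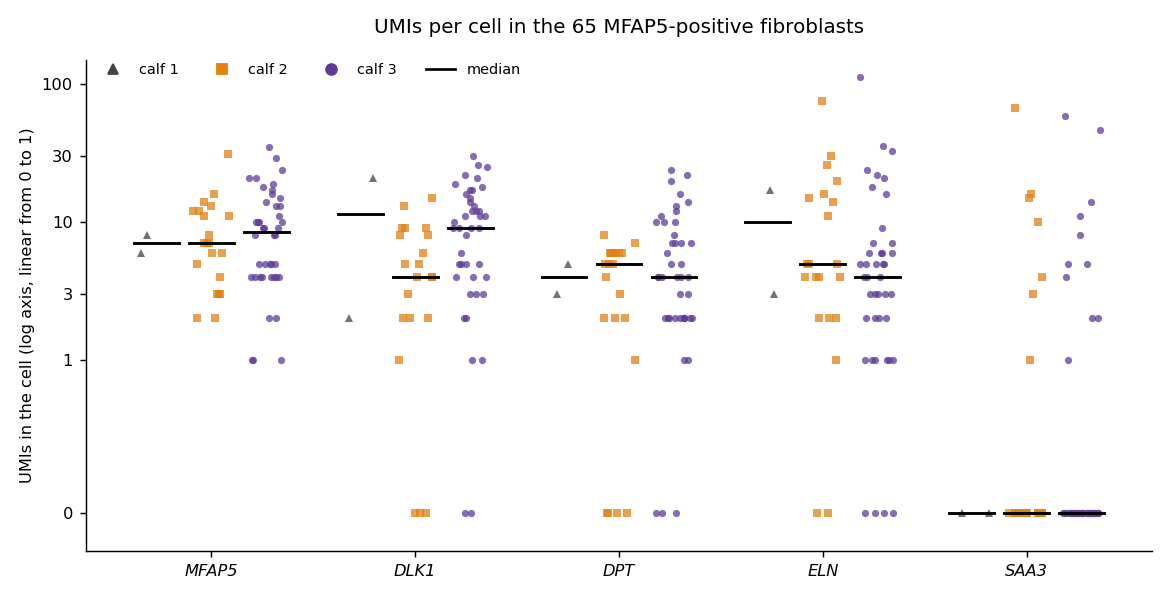
UMIs of MFAP5, DLK1, DPT, ELN and SAA3 in each of the 65 members (y axis, log scale that is linear from 0 to 1), with 1 point per cell, columns for calves 1, 2 and 3, and bars at the median. SAA3 has a median of 0 in every calf with single cells up to 67, whereas DLK1 medians are 11.5, 4 and 9.

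Members with SAA3 were similar in MFAP5 to those without, at 37.6 against 30.7 per 10000 in calf 2 and 28.0 against 37.3 in calf 3, so the order of the values was opposite in the 2 calves. COL3A1 was higher in members with 10 or more MFAP5 UMIs (373 and 340 in calves 2 and 3) than in those with 1 to 4 (190 and 238). CXCL14, a chemokine typical of subepithelial fibroblasts, was seen in 5 members. In calf 3, where 3 members carried CXCL14, it stood at 11.7 per 10000 in the 13 members with 1 to 4 MFAP5 UMIs. It was at 0 and 1.33 in those with 5 to 9 and with 10 or more, so these values rested on very few cells.

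The label "fibroblast" was checked against markers. COL1A1 and DCN were seen in 100% of thinned members. DCN was also in 38.3% of thinned epithelial cells here and COL1A1 in 0.40%, so DCN alone did not mark fibroblasts in these libraries. The summed level of 8 further endothelial markers was 0, 0.37 and 0.083 per 10000 in members against 0, 0.34 and 0.94 in comparison cells, and CDH5, KDR, PLVAP, ESAM and EGFL7 had no UMI in the members of any calf. Immune markers summed to 0, 0.37 and 0.33, with TYROBP, LAPTM5, CD3E, CORO1A, CD52 and CD53 at 0 throughout. Glial markers were at 0 in all members, all 6 with a unique symbol being at 0. Mesothelial markers summed to 0, 0 and 0.083. The 8 further epithelial markers summed to 2.06, 2.38 and 0.747 in members against 4.17, 2.15 and 1.19 in comparison cells. Members thus carried fibroblast genes and little marker RNA of these other types. As the rule itself set COL3A1, PTPRC, PECAM1 and the keratins, this check was not independent of it.

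Pericyte markers moved with the comparison. RGS5, NOTCH3, CSPG4, KCNJ8, ABCC9, MCAM, HIGD1B and NDUFA4L2 summed to 0, 0.55 and 1.58 per 10000 in members and 0.83, 10.3 and 19.3 in comparison cells. None of these genes was expressed strongly enough to be tested with 3 calves. Genes lower in members are therefore given against a comparison group that held pericyte marker RNA in calves 2 and 3, and the part of this in each difference was not tested.

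For the test, UMIs were summed per calf and group, and edgeR's quasi-likelihood test was fitted with the calf as a block. The calls were made at a Benjamini-Hochberg adjusted p under 0.05 over 1187 genes, from which the gate and label genes were left out. Groups were formed from MFAP5 in the same cells, so the test asks which other genes went with MFAP5 in the 3 calves. The count filter kept a gene that was high enough in as many sums as 1 group held. A gene near 0 throughout 1 group was thus tested only because it was high in the other. Of these genes 258 (21.7%) were called, 94 higher (7.92%) and 164 lower (13.8%) in members. The median log2 difference over all genes tested was -0.22, relative to which the values below should be read. Counts called in the gene lists below should be read beside the shares of 7.92% higher and 13.8% lower. The sign held in every calf for 211 called genes with at least 30 UMIs and a unique symbol, 77 higher and 134 lower. Without calf 1, 354 of 1851 genes were called, 169 higher and 185 lower, among them 211 of the 258 with the same direction and 0 with the opposite one. DESeq2 called 120, all among the 258. With sums of thinned cells 116 of the 258 had a value and 88 were called the same way. With the gate on thinned cells 125 had a value and 58 were called the same way. With at most 10% mitochondrial UMIs these numbers were 225 and 202.

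Of the genes with the largest increases, 13 are described here, and they encoded mostly secreted proteins. CPZ, a carboxypeptidase that binds WNT proteins, was at 10.3, 8.43 and 3.32 per 10000 in members against 0, 0 and 0.213, a log2 difference of 5.04 (SE 0.56, adjusted p = 2.44e-17). RSPO3, a secreted amplifier of WNT signalling, was at 2.06, 6.96 and 4.32 against 0, 0.172 and 0.298 (4.25, SE 0.51, adjusted p = 8.85e-15). PTN, the heparin-binding growth factor pleiotrophin, was at 37.1, 10.1 and 14.8 against 3.34, 0.344 and 1.49 (3.58, SE 0.35, adjusted p = 1.50e-21). The same direction in each calf was a condition for naming these genes, and in calf 1 RSPO3 had 1 member UMI against 0. The values of the 3 genes did not overlap between groups. CPZ and RSPO3 were at most 0.298 in comparison cells and passed the count filter through the members alone. Their separation was therefore set by the filter and is no support of its own. CREB5, a transcription factor of the CREB family, differed by 4.86, and PTGIS, the prostacyclin synthase, by 4.17. CTHRC1, a secreted collagen-triple-helix protein linked to WNT signalling and wound repair, differed by 4.05, at 2.06, 1.47 and 1.74 against 0, 0.172 and 0.0426.

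TFPI2, a serine protease inhibitor, differed by 3.36, FGL2, a fibrinogen-like protein with immune functions, by 3.31, and METRNL, a secreted meteorin-like factor, by 3.11. TNXB, the matrix protein tenascin-X that regulates collagen spacing and elastic fibres, differed by 3.64 and FMOD, the collagen-binding proteoglycan fibromodulin, by 3.26. Each of these 5 was higher in members of 3 of 3 calves, as the choice required. In calf 1 this rested on 2 or 3 member UMIs against 0. CLEC3B, or tetranectin, a plasminogen-binding protein, was at 4.12, 11.4 and 7.56 against 0, 1.64 and 0.638 (3.14, SE 0.39, adjusted p = 1.40e-13). Endothelial cells held 46.9, 41.1 and 44.8 CLEC3B UMIs per 10000, and epithelial cells 0.0297 to 0.0980. At equal depth CLEC3B was seen in 56.0% of members and 8.54% of comparison cells (56.9% and 11.4% unthinned), while the defining endothelial markers CDH5 and KDR were at 0 in members.

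The 14 genes with the largest decreases included several that were at 0 in every member. Such genes passed the count filter through the comparison cells alone, so their direction was set by the filter. PENK, which encodes the opioid precursor proenkephalin, was at 34.2, 5.77 and 9.53 per 10000 in comparison cells and had no UMI in members (adjusted p = 1.15e-26). Set against a floor of 3 UMIs over all members, it was at least 54.8-fold lower. TMEM176A, a membrane channel-like protein, was likewise at 0 in members and at least 21.1-fold lower, and LBH, a transcriptional cofactor of limb and heart development, at least 10.2-fold lower. In calf 1 LBH rested on 2 comparison UMIs. CXCL14 was at 217, 67.1 and 110 in comparison cells against 0, 0.366 and 4.07 in members, a log2 difference of -5.60 (SE 0.35, adjusted p = 6.79e-53). It had the smallest adjusted p of the genes named here.

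APOE, the lipid carrier, was at 17.5, 26.3 and 18.8 in comparison cells and 0, 0.916 and 0.498 in members (-5.13, SE 0.40, adjusted p = 1.29e-33). PAM, which amidates secreted peptides, was at 16.7, 15.0 and 23.9 against 0, 0.733 and 1.08 (-4.52, SE 0.39, adjusted p = 4.88e-28). NOTUM, a secreted enzyme that inactivates WNT proteins, was at 5.00, 1.21 and 1.96 against 0, 0 and 0.0830 (-4.79, SE 0.86). TBX2, a T-box repressor, and NDNF, a secreted neurotrophic factor, differed by -5.31 and -6.02, TMEM176B by -5.08 and ZNHIT6 by -4.54. CBLN4, a secreted cerebellin, REM1, a small GTPase, and PRKAR2B, a regulatory subunit of protein kinase A, differed by -4.44, -4.34 and -4.23.

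**Figure D3:**
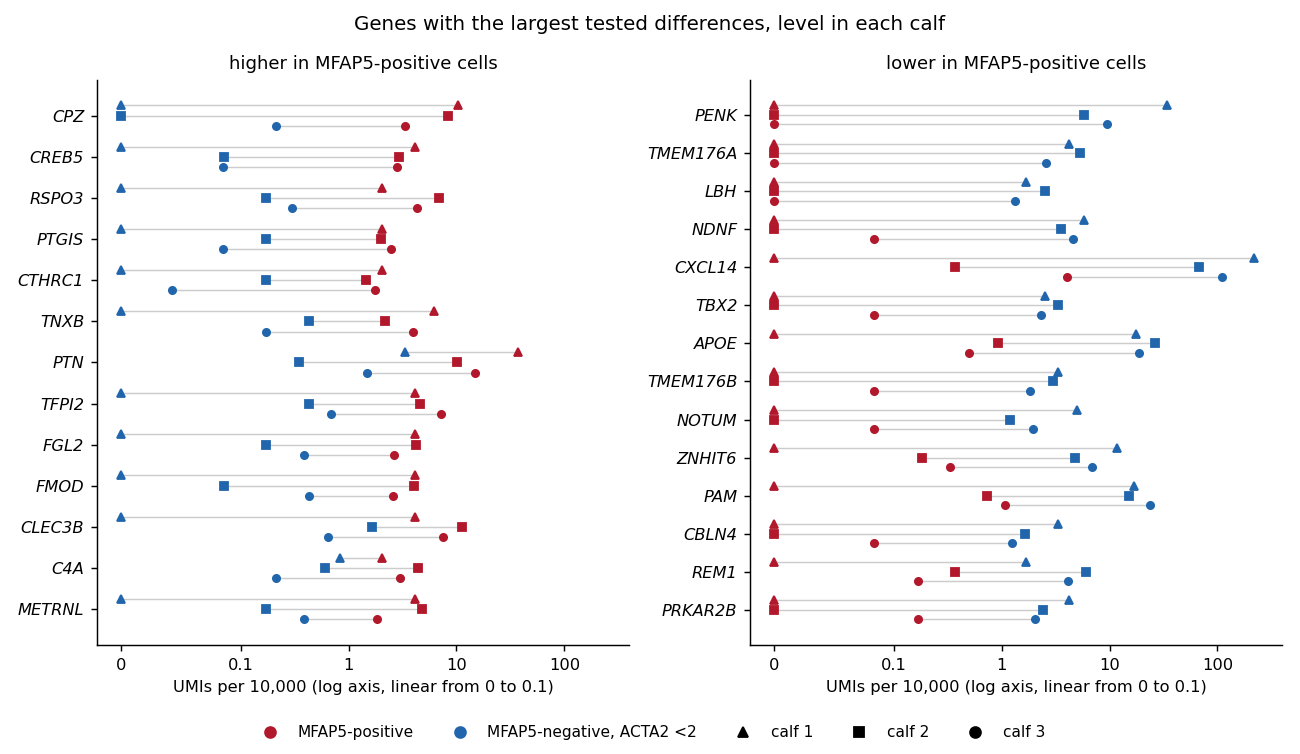
Level of 13 of the genes with the largest increases and the 14 with the largest decreases in members, in UMIs per 10000 (x axis, log scale that is linear from 0 to 0.1), in members (red) and MFAP5-negative cells with ACTA2 under 2 UMIs (blue), 1 point per calf and group. In each row and calf the red point lies on the same side of the blue one, as the choice of these genes required. PENK, TMEM176A and LBH sit at 0 in the members of all calves.

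Both chains of type I collagen were higher in members, and the other collagens split. Of 12 collagen genes tested, 5 were higher and 2 lower (3 and 1 with DESeq2), with a median log2 difference of 0.75 against -0.22 over all genes. As 7.92% of all genes tested were higher and 13.8% lower, the count of lower collagens was near the share. COL1A2, a chain of type I collagen, was at 200, 292 and 248 per 10000 against 60.9, 43.5 and 56.5 (2.09, SE 0.28, adjusted p = 6.55e-12). COL1A1 was at 192, 268 and 214 against 70.1, 40.7 and 54.8 (1.94, SE 0.28, adjusted p = 1.37e-10). In both genes the lowest member value was more than the highest comparison value, but how many of all genes tested separated in this way was not counted. COL5A1, of the type V collagen that seeds fibrils, differed by 0.91 and was called in 8 of 14 alternative settings. COL5A2 and COL5A3 of the same collagen were not called (0.84 and 0.64, adjusted p = 0.235 and 0.361 by edgeR). COL14A1, a fibril-associated collagen, and COL6A2 differed by 2.85 and 1.63, but calf 1 went the other way in both. COL4A5 and COL18A1, chains of basement membrane collagens, were lower, by -3.29 and -1.65.

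Among 10 general fibroblast genes tested, 5 were higher (COL1A1, COL1A2, COL5A1, COL6A2 and SPARC) and 2 lower (LUM and PDGFRA), with a median of 0.87. DESeq2 called COL1A1, COL1A2 and SPARC higher and LUM lower. These lists share genes and are not separate evidence. DCN, encoding the proteoglycan decorin, was at 80.4, 92.7 and 94.3 against 93.4, 88.4 and 70.1 and was not called, and FBLN1 was at 12.4, 24.7 and 25.7 against 25.9, 18.5 and 22.6, also not called. LUM, encoding lumican, a decorin relative, was at 12.4, 33.0 and 30.5 against 48.4, 79.1 and 72.3 (-1.45, SE 0.26, adjusted p = 5.65e-07). PDGFRA, a growth factor receptor, was called lower (-1.0, adjusted p = 0.0412) but in 0 of 14 alternative settings. Of 9 small leucine-rich proteoglycans, 4 were higher and 2 lower (3 and 2 with DESeq2, without PODN), beside 7.92% and 13.8% of all genes tested. FMOD, OGN (1.78), BGN (1.80) and PODN (2.08) were the higher ones, and LUM and ASPN (-1.58) the lower ones, PODN with calf 1 in the other direction.

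Elastic fibre genes beyond the label genes were mostly not called. Of 12 tested, 3 were higher and 0 lower, with a median of 0.44, and DESeq2 called FBN1 alone. FBN1, encoding fibrillin-1 that MFAP5 binds, was at 6.18, 11.9 and 13.0 against 2.50, 3.70 and 4.17 (1.57, SE 0.32, adjusted p = 1.00e-05). LOX, the lysyl oxidase that cross-links collagen and elastin, differed by 1.54, and LTBP3, a latent TGF-beta binding protein, by 1.07. MFAP2, the close relative of MFAP5, was at 10.3, 8.79 and 8.80 against 5.00, 5.77 and 4.43 and was not called, nor was MFAP4 at 18.5, 9.53 and 6.89 against 8.34, 7.49 and 4.13. FBN2 was at 0, 6.41 and 5.07 against 11.7, 6.03 and 6.81. Both MFAP2 and MFAP4 had the higher value in members of every calf. Without calf 1, 6 of 15 genes of the list were higher, MFAP2 among them, beside 169 of 1851 over all genes of that fit.

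Matricellular and adhesive proteins went both ways, with 5 of 12 tested higher and 4 lower (4 and 3 with DESeq2, without MGP and VCAN). Among all genes tested, 7.92% were higher and 13.8% lower. FN1, or fibronectin, was at 0, 12.5 and 13.0 against 0.834, 0.344 and 1.53 (3.54, SE 0.39, adjusted p = 1.28e-17), with calf 1 in the other direction at 0 member UMIs. SPARC, a collagen-binding protein, was at 107, 112 and 134 against 38.4, 45.6 and 77.1 (1.01). MGP, an inhibitor of calcification, was at 381, 370 and 252 against 188, 119 and 206 (0.81). SPARCL1, CCN1, POSTN and VCAN were lower, by -2.62, -2.33, -3.15 and -1.62. SPARCL1, a SPARC relative, was at 2.06, 2.93 and 5.15 against 41.7, 17.0 and 25.4, so the 2 related genes differed in opposite directions.

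Markers of adventitial fibroblasts were on the higher side and those of subepithelial fibroblasts on the lower. Of 16 adventitial genes listed, 6 were tested, 4 were higher and 0 lower, with a median of 1.80. The higher ones were CLEC3B, TNXB, FBN1 and IGFBP6, an IGF-II binding protein at 22.7, 27.1 and 13.9 against 5.84, 6.72 and 2.85 (2.03). THY1 and CD248 were not called. The list summed to 41.2, 64.3 and 48.6 in members and 12.5, 18.6 and 11.3 in comparison cells. In endothelial cells the sum was 58.4, 50.6 and 54.2, so the list did not set members apart from endothelial cells. IGFBP6 was also seen in 41.6% of thinned epithelial and 39.5% of thinned endothelial cells (71.6% and 60.8% unthinned), against 84.0% of thinned members (81.5% unthinned), so it did not mark fibroblasts alone. PI16 and CD34, defining markers of such fibroblasts in other tissues, were too low to test with 3 calves. PI16 was seen in 16.0% of thinned members and 1.22% of thinned comparison cells (15.4% and 0.571% unthinned), and CD34 in 16.0% and 1.22% (15.4% and 1.14% unthinned). CD34 was also seen in 42.2% of thinned endothelial cells. DPP4, another such marker, was at 0 of 50 thinned members, which allows a share of up to 6.0% of cells with a UMI by the limit of 3 counts over the total (exact 95% interval 0 to 7.11). Without calf 1, PI16 entered the test and was higher, making 5 of 7, beside 169 of 1851 over all genes of that fit.

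All 5 subepithelial genes tested were lower, with a median of -3.53, and DESeq2 called CXCL14, PAM and BMP4. They were CXCL14, PAM, BMP4, FOXF1 and PDGFRA, the last losing its call as given above. The study had separated PAM-positive from MFAP5-positive fibroblasts in data that included these libraries. The lists were chosen with earlier results known, so the lower PAM and CXCL14 are not independent evidence. BMP4, a morphogen secreted to the epithelium, was at 3.34, 6.03 and 8.04 in comparison cells and 0, 0.366 and 0.830 in members (-3.53, SE 0.47, adjusted p = 6.13e-12). FOXF1, a transcription factor of gut mesenchyme, was at 3.34, 2.07 and 1.66 against 0, 0.550 and 0.332 (-2.26). The summed level of the list was 252, 96.8 and 152 in comparison cells and 0, 5.50 and 10.5 in members, mostly CXCL14. Neither list says where in the rumen wall the cells lay, since the tissue was dissociated.

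**Figure D4:**
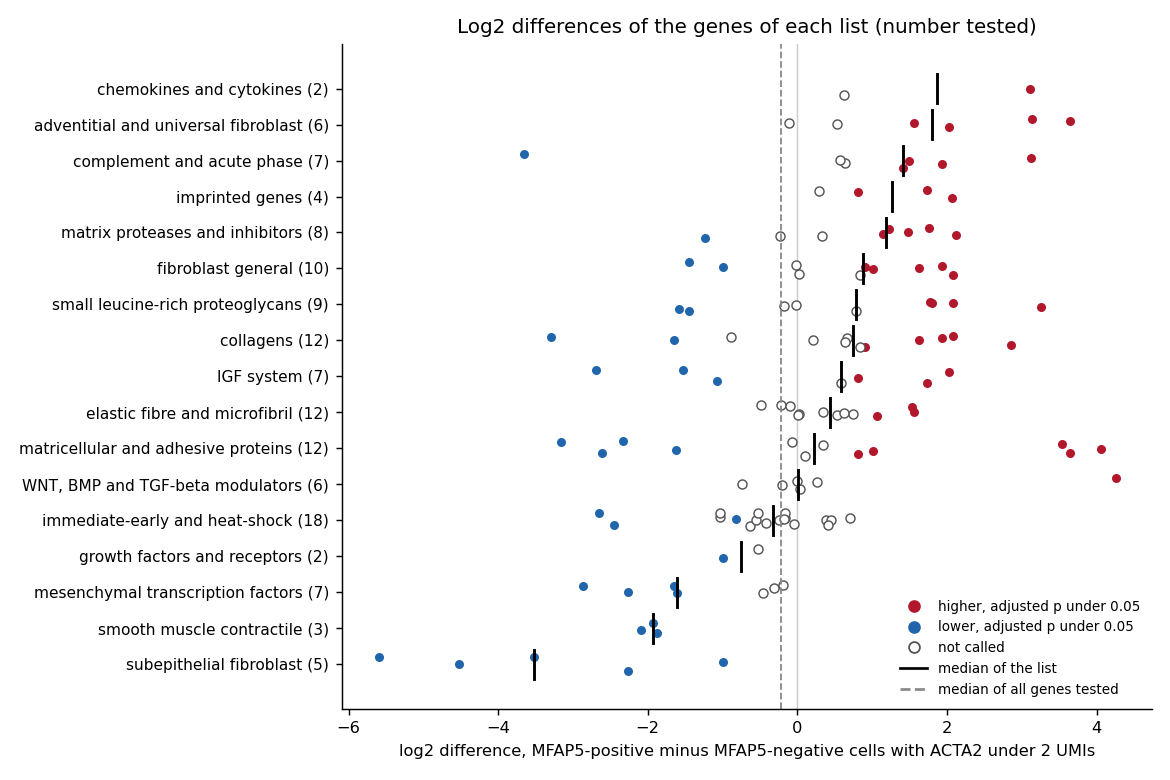
Log2 difference (x axis, members minus MFAP5-negative cells with ACTA2 under 2 UMIs) of each tested gene of the lists with 2 or more tested genes (y axis, number tested in brackets), called genes filled, list medians as black bars and the median of all genes tested, -0.22, as a dashed line. The 4 called adventitial genes lie to the right and the 5 subepithelial genes to the left, while complement, IGF and matricellular genes lie on both sides.

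Most of the complement genes called were higher in members. Of 7 complement and acute-phase genes tested, 4 were higher and 1 lower, with a median of 1.42. Beside 7.92% higher and 13.8% lower over all genes tested, the count of lower genes was near the share. C4A (3.13), C7 (1.93), C1R (1.50) and CLU (1.42), a component, a terminal component, a protease and a chaperone that blocks membrane attack, were higher in 3 of 3 calves. CLU was at 24.7, 19.1 and 21.3 per 10000 against 1.67, 7.66 and 8.72 (SE 0.27, adjusted p = 2.81e-06). C4A has a near-identical copy in many mammals, so its counts are uncertain, and calf 1 had 1 C4A UMI in each group. CFD, or adipsin, the protease that starts the alternative pathway, was at 4.12, 0.366 and 3.65 against 23.4, 18.1 and 33.5 (-3.65, SE 0.33, adjusted p = 2.44e-25). The decrease in CFD was seen in each calf. C3, the central component, was too low to test with 3 calves, at 8.24, 0.916 and 2.49 against 0, 0.0861 and 0.383.

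CXCL12 and CXCL14, both CXC chemokines, also differed in opposite directions. CXCL12, which attracts haematopoietic and immune cells through CXCR4, was at 20.6, 34.8 and 18.6 in members and 0, 2.76 and 3.15 in comparison cells (3.11, SE 0.30, adjusted p = 1.92e-22). At equal depth it was seen in 82.0% of members and 34.1% of comparison cells (87.7% and 30.9% unthinned), and CXCL14 in 8.0% and 62.2% (7.69% and 73.7% unthinned). The fitted differences of 3.11 and -5.60 had the same sign in 3 of 3 calves. CCL2, the other chemokine tested, was not called.

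DLK1 belongs to the imprinted genes, and 3 of the 4 others tested were higher with 0 lower (median 1.27), beside 7.92% higher over all genes. DESeq2 called IGF2R alone. IGF2, a fetal growth factor, was at 47.4, 50.2 and 75.2 against 30.9, 22.9 and 40.2 (0.81, SE 0.25, adjusted p = 0.00848). IGF2R, its clearance receptor, differed by 1.73 and PEG3, a zinc finger gene, by 2.07. Each was higher in 3 of 3 calves, by less than DLK1. In calf 1, however, IGF2R had 1 UMI in each group and PEG3 had 1 member UMI against 0. MEST was too low to test with 3 calves, at 0, 3.30 and 1.91 against 0, 0.258 and 0.0851. Without calf 1, MEST and PLAGL1 were called as well, making 5 of 7, beside 169 higher of 1851 over all genes of that fit. In the IGF system as a whole, 3 of 7 genes were higher (IGF2, IGF2R and IGFBP6) and 3 lower, namely IGFBP3 (-2.70), IGFBP4 (-1.52) and IGFBP7 (-1.08). The shares over all genes tested were 7.92% higher and 13.8% lower. With DESeq2 IGF2R and IGFBP6 were higher and IGFBP3 lower, and IGFBP7 was called in 5 of 14 alternative settings.

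Matrix proteases and their inhibitors gave 5 higher and 1 lower of 8, with a median of 1.18, and 3 higher and 0 lower with DESeq2 (SERPINF1, TIMP2 and PCOLCE). Beside 7.92% higher and 13.8% lower over all genes tested, the count of lower genes was near the share. SERPINF1, an antiangiogenic serpin, was at 6.18, 16.3 and 8.89 against 5.00, 1.55 and 2.77 (2.12, SE 0.34, adjusted p = 7.35e-09). TIMP2 (1.76), PCOLCE (1.47), which speeds procollagen cleavage, SERPINH1 (1.14), the collagen chaperone, and ADAMTS2 (1.23), a procollagen protease, were higher, ADAMTS2 with calf 1 in the other direction. MMP14, a membrane collagenase, was lower (-1.23). Of 6 modulators of WNT, BMP and TGF-beta tested, RSPO3 alone was called, and the median was 0.013. For 2 growth factor genes tested, PDGFRA was lower and FGF2 was not called.

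Among 7 mesenchymal transcription factors tested, 0 were higher and 4 lower, with a median of -1.61, but DESeq2 called FOXF2 alone. The share lower over all genes tested was 13.8%. FOXF2 (-2.86), FOXF1 (-2.26), TCF4 (-1.65) and PRRX2 (-1.61) were lower in each calf, PRRX2 being called in 7 of 12 alternative settings, whereas TCF21 and TWIST1 were not called. OSR1 was too low to test with 3 calves, with 0, 1.10 and 1.49 in members and 0 in the comparison cells of all calves. It was called higher without calf 1. The contractile genes CALD1, TPM1 and TPM2 were lower (-2.10, -1.93 and -1.87), with ACTA2 limited to under 2 UMIs on both sides. DESeq2 called CALD1 alone, and TPM1 was called in 8 of 11 alternative settings. Summed contractile markers were 2.06, 5.50 and 5.81 per 10000 in members against 18.4, 19.3 and 22.4.

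The Notch genes gave no test in 3 calves. HES1, a target of Notch, had 0, 0 and 0.581 in members and 3.34, 3.27 and 0.979 in comparison cells, and NOTCH3 had 0, 0 and 0.249 against 0, 1.21 and 1.06. Without calf 1 both were tested and called lower, beside 185 lower of 1851 over all genes of that fit. NOTCH3 is also a pericyte marker. Epithelial cells held DLK2, the closest relative of DLK1, at 1.15, 3.03 and 2.24 per 10000, while members had 0, 0.183 and 0.166. Cell cycle genes summed to 0, 2.57 and 2.41 in members and 4.17, 3.62 and 4.64 in comparison cells, with MKI67 and TOP2A at 0 in members.

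Immediate-early and heat-shock genes, which rise during dissociation, were mostly not called. Of 18 tested, 0 were higher and 3 lower (HSPA1A -2.65, HSPB1 -2.46 and JUN -0.83), where 13.8% of all genes tested were lower, and the list's median of -0.33 was near the -0.22 of all genes. The count is thus no result about the list. Their sum was 101, 68.0 and 145 per 10000 in members against 146, 138 and 177 in comparison cells and was lower in members of each calf. HSPA1A and HSPB1 were called in 14 of 14 alternative settings and JUN in 6, and JUN was higher in the members of calf 3. The part of this signal in the other differences was not tested.

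Against all MFAP5-negative COL3A1 cells, the ACTA2 cells included, 287 of 1197 genes (24.0%) were called, 131 higher (10.9%) and 156 lower (13.0%). In calf 1 the comparison cells were the same 5 cells as before, and the members were the same in all calves, so the 2 comparisons are not independent. Elastic fibre genes then gave 7 of 12 higher and 0 lower (FBN1, LTBP3, MFAP2, LOX, MFAP4, FBLN1 and LTBP4), and complement genes 6 of 7 higher and CFD lower. All 5 adventitial genes tested were higher. Of 5 subepithelial genes, 4 were lower and PDGFRA was not called. The median of 3 contractile genes moved to -4.95, with the ACTA2 limit then on the members alone.

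The keratin limit set the number of members more than any other limit. Before the limits on other lineages, 132 kept cells had at least 3 COL3A1 UMIs and 1 MFAP5 UMI. Of these, 49 had the summed keratins at 10 to under 30 per 10000, 17 had 30 or more, 1 had PECAM1, and 0 had PTPRC or 2 ACTA2 UMIs. In the 49 cells MFAP5 stood at 25.7, 29.3 and 32.0 per 10000, close to the 28.9, 33.5 and 35.0 of members, and DLK1 at 26.8, 19.6 and 31.4, so DLK1 was not confined to the members. In the 17 cells MFAP5 was at 7.39, 7.77 and 10.6, DLK1 at 24.9, 4.15 and 21.4, and KRT15 at 119, 94.5 and 86.7. MFAP5 just outside the limit was thus near its level inside, and far outside it was lower. With the limit at 30, set after the data were seen, 390 of 2081 genes were called, among them 215 of the 258 with the same direction.

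**Figure D5:**
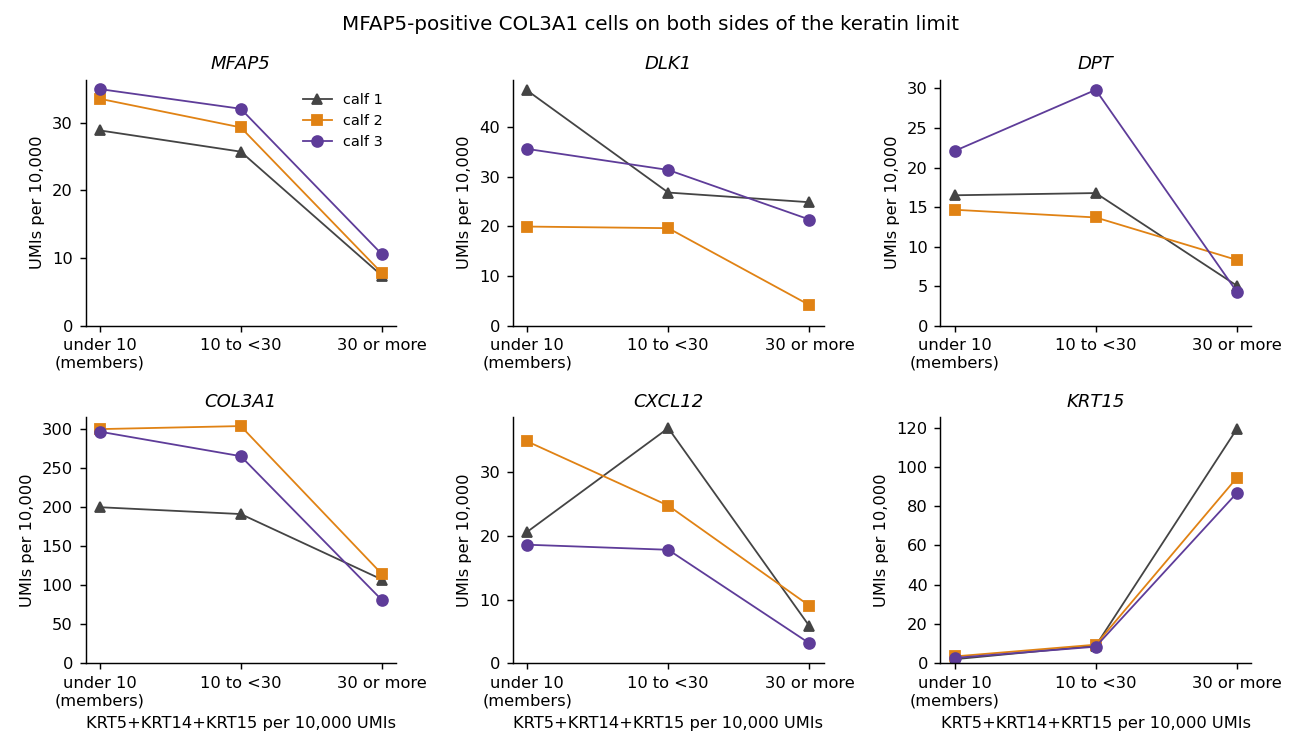
UMIs per 10000 (y axis, linear from 0) of MFAP5, DLK1, DPT, COL3A1, CXCL12 and KRT15 in kept cells with at least 3 COL3A1 and 1 MFAP5 UMIs, by their summed KRT5, KRT14 and KRT15 (x axis), 1 point per calf. MFAP5 falls from 25.7 to 32.0 in the middle class to between 7.39 and 10.6 in the highest, while KRT15 climbs to 86.7 or more.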

How the data were processed

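Rumen libraries of 3 newborn calves were analysed. The deposited matrices hold UMI counts per gene and barcode, which the authors made with Cell Ranger 3.1.0 (per the labels) against the ARS-UCD1.2 cattle genome. The limits on genes, UMIs and mitochondrial share followed the study. The members and gene lists were chosen with earlier results of these data known. Counts were summed per calf and group, and edgeR 4.0.16 (filterByExpr, TMM, quasi-likelihood fit, R 4.3.3) was run with the calf as a block, since both sums of a calf come from 1 animal and library. P-values were adjusted over all genes tested (Benjamini-Hochberg). Small p-values rest on a spread estimated across genes from 3 calves. The 8 gate genes and 4 label genes were fitted but left out of the calls. Epithelial cells, used for background, were kept barcodes with under 3 COL3A1 UMIs, no PTPRC or PECAM1 and keratins at 10 or more per 10000, and endothelial cells had under 3 COL3A1 UMIs, PECAM1, no PTPRC and keratins under 10. Levels are UMIs per 10000 in the summed cells. Shares were taken after thinning to 2000 UMIs, with exact 95% intervals. Doublets were scored with scanpy 1.11.5 (Scrublet) and the top 0.8% per 1000 barcodes marked, but not removed. The genes named first were the 14 higher and 14 lower with the largest log2 difference among called genes with a symbol, the same sign in 3 of 3 calves and at least 30 UMIs; genes of the gate, label and lists were named besides. A gene that this rule also named is not reported here. The scripts were tested on simulated data. DESeq2 1.42.0 and the other alternatives are given in the closing section. No sequences or coordinates were used here.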

Additional observations from a re-analysis of the deposited data

Results flagged for a closer look

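Cells that the comparisons did not use carried MFAP5 and COL3A1. They were picked for these UMIs, so their number is a description. The limit on keratins left out 49 kept cells with 10 to under 30 keratin UMIs per 10000 and 17 with 30 or more, both with MFAP5 and at least 3 COL3A1 UMIs. The minimum of 500 genes left out 6 further barcodes of this kind. In these libraries 0.0838% of unthinned epithelial cells had an MFAP5 UMI.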

How the results depend on the processing

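Leaving out each calf in turn, the number of genes called ranged from 92 to 354 against MFAP5-negative cells with ACTA2 under 2 UMIs (258 with all calves) and from 55 to 563 against all MFAP5-negative cells (287). Leaving out calf 1 gave the highest counts, 354 and 563, and leaving out calf 3 the lowest; without calf 2 they were 145 and 139. With no replicate block for the calf, 172 and 181 genes were called, all among those called with it. DESeq2 called 120 and 152, the gate on thinned cells gave 58 of 462 and 115 of 715, and sums of thinned cells gave 98 of 429 and 153 of 610, with fewer genes tested. A keratin limit of 30, chosen after seeing the data, gave 390 and 435, and 441 and 715 without calf 1. The share of COL3A1 cells that were members averaged 30.0% after gating on thinned cells, against 22.2%, and ranged from 19.1% to 25.2% with a calf left out. RLE size factors, no count filter, 2 MFAP5 UMIs, doublets left out and at most 10% mitochondrial UMIs kept each count within 1.5 times. With no count filter, however, the 312 and 399 genes called were out of 11770 and 12496. They held only 161 of the 258 and 187 of the 287. Of 79 named genes, 0 changed direction under the alternatives in which they had a value, but 45 had one with the gate on thinned cells, 47 with thinned sums and 49 without calf 3. Of these, 30, 40 and 41 were called. DESeq2 called 57 of the 79, and without calf 1, 76 were called. The cause of these differences was not tested. With 2 members, calf 1 could resolve few genes, and 3 calves of 1 stage give no measure of age.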
